A study of Rattus norvegicus with 3 samples.

Results

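Messenger RNA levels of genes for LIM-domain, PDZ-LIM, titin-cap, ankyrin-repeat and Xin proteins of the cardiac Z-disc were compared on 3 Affymetrix rat arrays. The members were 10 named genes (Csrp3, Fhl1, Pdlim3, Pdlim5, Pdlim7, Ldb3, Tcap, Ankrd1, Xirp1 and Nebl), taken through every probe set that the platform annotation gives to 1 gene symbol. This found 16 probe sets for 9 genes, out of 12783 such probe sets for 10411 genes, and no probe set of this kind for Nebl, which was not analysed here. All 16 probe sets lay above the detection floor used here on all 3 arrays, so none entered through 1 condition alone.

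Neonatal rat ventricular myocytes had been cultured for 48 h with 1 µM PAMH, with 20 µM phenylephrine or unstimulated. PAMH is known here by that code name, and the keywords shared by all 3 samples include 5-hydroxytryptamine and pyridine; phenylephrine activates α1-adrenergic receptors and is a classical hypertrophic stimulus for such cultures. Each condition had 1 array, so no ratio has a replicate check, no p-value was computed, and precision is limited by that number. As PAMH and phenylephrine were given at unlike doses, values are set side by side without a comparison at matched dose.

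The Z-disc is the boundary of the sarcomere, where actin filaments of neighbouring sarcomeres are crosslinked by α-actinin and where titin is anchored. LIM and PDZ-LIM proteins bind α-actinin, titin or protein kinase C there, and several of them also travel to the nucleus. Muscle LIM protein, telethonin and the cardiac ankyrin-repeat protein are known as parts of the machinery with which heart muscle senses stretch, and some of their genes are markers of hypertrophy.

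Promoter sequences are shown for 4 member genes that represent the patterns described below: Fhl1, far above its unstimulated level; Ldb3, near it; Xirp1, between these; and Pdlim7, whose probe sets disagree. Each is the 300 bases from 250 before to 50 after the annotated start, from the RefSeq promoter table of build GRCr8. This table held 9 promoters for 6 of the 10 member genes. Capitals mark matches, on either strand, to a CArG box, the binding site of the serum response factor SRF, to a MEF2 site, to an MCAT element or to a GATA element. No marked matches overlapped.
Fhl1, chrX:139638246-139638545, plus strand, the upstream one of 2 annotated starts: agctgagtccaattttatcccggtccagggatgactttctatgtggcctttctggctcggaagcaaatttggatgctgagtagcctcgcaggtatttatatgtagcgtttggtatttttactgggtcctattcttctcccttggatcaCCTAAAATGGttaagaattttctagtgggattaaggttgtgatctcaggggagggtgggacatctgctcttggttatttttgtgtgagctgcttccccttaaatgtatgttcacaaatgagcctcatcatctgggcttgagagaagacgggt
Ldb3, chr16:9924630-9924929, minus strand: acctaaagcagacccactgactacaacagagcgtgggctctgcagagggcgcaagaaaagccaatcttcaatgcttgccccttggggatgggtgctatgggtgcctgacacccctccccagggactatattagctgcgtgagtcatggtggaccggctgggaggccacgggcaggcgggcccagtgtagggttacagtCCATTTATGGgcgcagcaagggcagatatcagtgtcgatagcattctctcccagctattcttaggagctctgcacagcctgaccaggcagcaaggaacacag
Xirp1, chr8:128634962-128635261, minus strand, the first of 3 annotated starts: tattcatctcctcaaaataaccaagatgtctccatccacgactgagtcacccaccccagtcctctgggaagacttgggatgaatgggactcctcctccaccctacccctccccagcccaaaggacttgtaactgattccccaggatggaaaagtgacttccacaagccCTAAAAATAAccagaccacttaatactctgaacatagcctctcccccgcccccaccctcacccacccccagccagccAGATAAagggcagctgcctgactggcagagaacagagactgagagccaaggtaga
Pdlim7, chr17:9129558-9129857, plus strand: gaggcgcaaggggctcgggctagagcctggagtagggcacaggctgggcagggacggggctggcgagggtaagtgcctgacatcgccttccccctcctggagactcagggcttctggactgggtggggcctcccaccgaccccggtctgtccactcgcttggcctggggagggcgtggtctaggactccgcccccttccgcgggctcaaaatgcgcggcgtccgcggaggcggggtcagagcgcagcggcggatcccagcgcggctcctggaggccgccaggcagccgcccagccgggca

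The Fhl1 promoter held a CArG box at bases -102 to -93 from the start, and the promoter of its other start held none. The Ldb3 promoter held one at -52 to -43, and so did the promoter of Nebl, at -177 to -168. A CArG box was present in 1.64% of the 33469 promoters of this length. The Xirp1 promoter held a MEF2 site at -82 to -73, a motif present in 3.29% of all promoters, and a GATA element (AGATAA) at the start, which 11.6% held. The promoter of the second Xirp1 start, which overlaps the first, held both, and that of the third held neither. No member promoter held an MCAT element (CATTCC), which 14.2% of all promoters held, and the promoters of Pdlim5 and Pdlim7, with 71.0% and 72.7% G and C, held none of the 4 motifs. E-boxes (CANNTG), which are not in capitals, were found in 72.1% of all promoters and in those of Fhl1, Xirp1, Pdlim5 and Nebl. These matches describe letters within these windows, and a window with no match says nothing of the factor.

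Signals below are the deposited intensities after each array was multiplied by 1 factor to equal medians. They can be compared between arrays for 1 probe set, not between probe sets. The factors were 1.04 for PAMH, 1.02 for phenylephrine and 0.937 for unstimulated cells. Without them, the array medians stood at a log2 difference from the unstimulated array of -0.15 with PAMH and -0.13 with phenylephrine. A probe set counted as measured at or above a signal of 76.0, percentile 40 of all signals. Where a gene had more than 1 probe set, the brightest stood for it, and 1.5-fold was the threshold for calling it higher or lower. The 3′ to 5′ ratio of the actin control was 1.54 with PAMH, 1.44 with phenylephrine and 1.72 in unstimulated cells, and that of Gapdh was 1.01, 1.07 and 1.04 in the same order.

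The first question was how these genes stood with each compound against no stimulus. Most were higher with both. With PAMH, 8 of the 9 measured genes stood at least 1.5-fold above the unstimulated level, against 9.31% of all 6549 measured genes, and 6 of the 9 at 2-fold or more, against 2.05%. With phenylephrine, 7 of the 9 passed 1.5-fold, against 8.90% of 6571 genes, and 6 at 2-fold or more, against 2.62%. No member was lower by 1.5-fold with either, where 4.17% of all genes were lower with PAMH and 4.54% with phenylephrine. The members' median log2 ratio was 1.30 with PAMH and 1.60 with phenylephrine, beside 0.10 and 0.07 over all genes. Bright genes stood higher in general: among the brightest 2 of 10 signal classes, where all 9 genes lay, 17.7% were higher with PAMH and 15.2% with phenylephrine, with medians of 0.27 and 0.20. Both comparisons share the unstimulated array and any deviation of it. The members were chosen with earlier results of these data known. Their counts beside the shares of all genes are therefore a description and not a test of this gene class. Among all genes past 1.5-fold, the share that was higher depended on the scaling. With PAMH it was 69.1%, but 40.5% on the deposited intensities, 26.0% with ratios centred on myocyte markers and between 52.6% and 58.2% under the other rescalings. With phenylephrine it was 66.3%, but 43.3% on the deposited intensities, 69.3% after myocyte centring and between 55.1% and 58.8% otherwise.

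**Figure D1:**
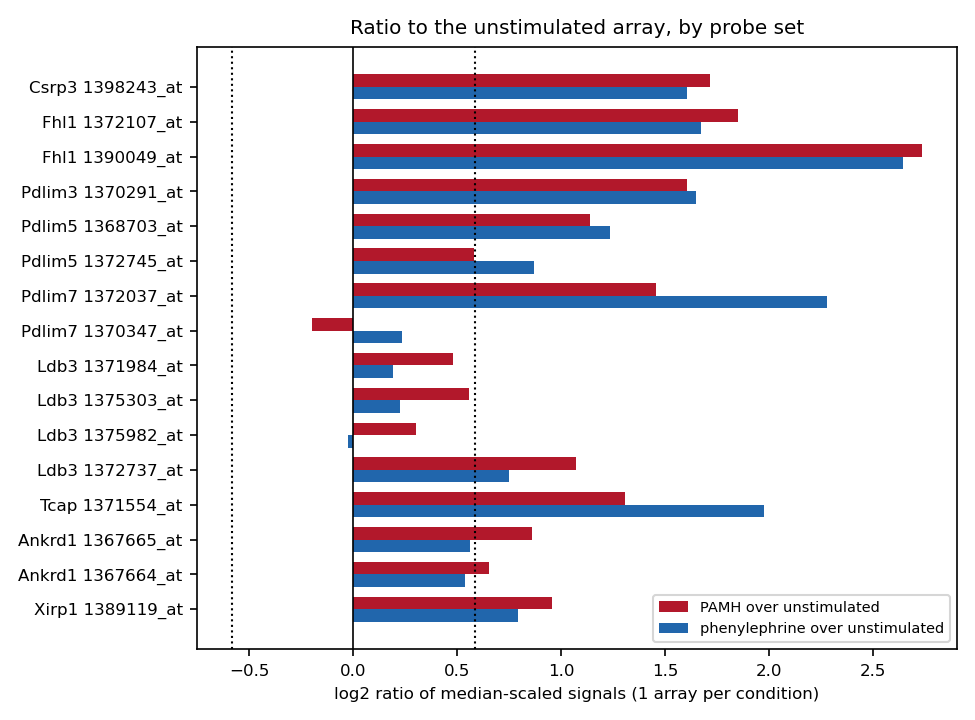
Log2 ratio of the median-scaled signal to that of the unstimulated array for each of the 16 probe sets, with PAMH (red) and phenylephrine (blue), 1 array per condition and no error bars. Dotted lines mark 1.5-fold; 11 probe sets are past it with PAMH and 10 with phenylephrine, and the dimmer Pdlim7 probe set and 3 of the 4 Ldb3 probe sets are not.

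By probe set, 11 of 16 passed 1.5-fold upwards with PAMH, against 9.19% of all measured probe sets, and 10 of 16 with phenylephrine, against 8.68%. No member probe set was lower by 1.5-fold. Probe sets of 1 gene come from the same RNA samples and are not separate observations.

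The LIM-only members Csrp3 and Fhl1 stood far above their unstimulated levels. Csrp3 encodes muscle LIM protein, a partner of α-actinin and telethonin. Its probe set had a signal of 10516 with PAMH and 9717 with phenylephrine, against 3199 in unstimulated cells. It was 3.29-fold higher with PAMH and 3.04-fold higher with phenylephrine, above 98.8% and 98.2% of the genes in the same signal class. Fhl1, a LIM-only protein of the sarcomere that binds titin, had 2 probe sets. The brighter one had signals of 9062 with PAMH and 8004 with phenylephrine, against 2512 in unstimulated cells, and was 3.61-fold and 3.19-fold higher. The other had 7310 with PAMH and 6858 with phenylephrine, against 1097 in unstimulated cells, and was 6.66-fold and 6.25-fold higher. The direction was thus the same by both, and the size of the ratio differed by a log2 difference of 0.89 with PAMH and 0.97 with phenylephrine. The ratio of the PAMH to the phenylephrine array differed between them by only 0.09, so the probe sets differed far less between the compounds than against the unstimulated array.

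Among the PDZ-LIM proteins, which bind α-actinin with the PDZ domain, Pdlim3 and Pdlim5 were higher with both compounds. Pdlim3 (the α-actinin-associated LIM protein ALP) had signals of 2347 with PAMH and 2425 with phenylephrine, against 773 in unstimulated cells, and was 3.04-fold and 3.14-fold higher. Pdlim5, or Enigma homologue, which also binds protein kinase C, had 2352 with PAMH and 2509 with phenylephrine, against 1067 in unstimulated cells, by its brighter probe set. This was 2.20-fold higher with PAMH and 2.35-fold higher with phenylephrine. The second Pdlim5 probe set had 1600 and 1954, against 1072 in unstimulated cells, ratios of 1.49-fold, just short of the threshold, and 1.82-fold. On the unstimulated array alone this second probe set was slightly the brighter one. By it, Pdlim5 would not be called higher with PAMH.

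Ldb3, known as Cypher or ZASP, which also links α-actinin to protein kinase C, stood nearest to its unstimulated level. Its brightest probe set had signals of 3044 with PAMH and 2493 with phenylephrine, against 2181 in unstimulated cells, log2 ratios of 0.48 and 0.19. The next, by brightness, had 2894 and 2293, against 1967 in unstimulated cells, and the third had 2659 and 2117, against 2156. The dimmest had 666 with PAMH and 535 with phenylephrine, against 318 in unstimulated cells, and this probe set alone of the 4 passed 1.5-fold, at 2.10-fold with PAMH and 1.68-fold with phenylephrine. On all 4 the PAMH array was the highest. Ldb3 was past 1.5-fold with PAMH by the mean of its probe sets, at a log2 ratio of 0.60, which made all 9 members higher, while its brightest probe set had 0.13 after quantile normalization. The phenylephrine ratio had no settled direction: the third probe set gave -0.03, and the brightest gave -0.11 after quantile normalization, -0.06 after cyclic loess and -0.05 relative to genes of like signal.

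**Figure D2:**
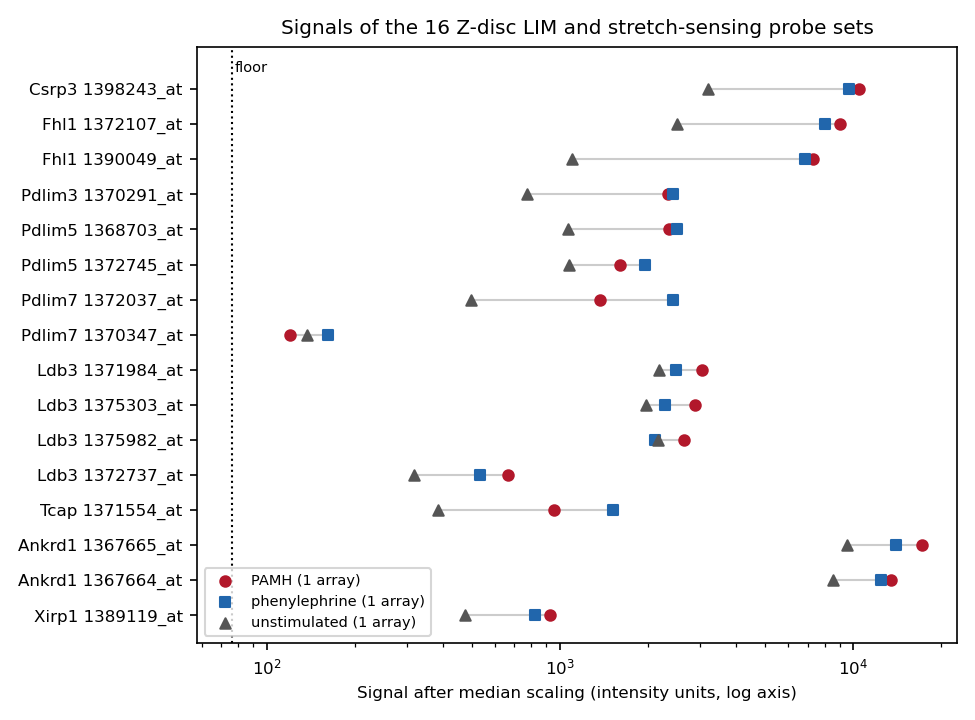
Signal after median scaling (log axis) of each of the 16 probe sets on the PAMH (circles), phenylephrine (squares) and unstimulated (triangles) arrays, 1 array each. Levels can be read along a row and not between rows; the unstimulated array is the lowest in every row but those of the dimmer Pdlim7 probe set and the third Ldb3 probe set.

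Tcap encodes telethonin, which caps the end of titin in the Z-disc and is a ligand of muscle LIM protein. It had signals of 952 with PAMH and 1515 with phenylephrine, against 385 in unstimulated cells. The ratio was 2.47-fold with PAMH and 3.93-fold with phenylephrine, above 98.3% and 99.2% of the genes in its signal class. Tcap and Pdlim7 were the members further above the unstimulated array with phenylephrine than with PAMH by more than 1.5-fold.

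The ankyrin-repeat and Xin genes had smaller ratios. Ankrd1, the cardiac ankyrin-repeat protein that binds titin and acts in the nucleus, is known as an early marker of load in the heart. Its brighter probe set had signals of 17258 with PAMH and 14038 with phenylephrine, against 9524 in unstimulated cells, and the other had 13447 and 12444, against 8568. The brighter one was 1.81-fold higher with PAMH, and with phenylephrine it was at 1.47-fold, short of the threshold, as was the other at 1.45-fold. These signals lay near the top of the arrays' range, whose highest scaled signals were 19589 with PAMH, 16987 with phenylephrine and 12128 in unstimulated cells, and marks of saturation were not used here. The PAMH log2 ratio of 0.86 became 0.23 after quantile normalization, 0.33 after cyclic loess and 0.54 relative to genes of like signal, each below 1.5-fold. Xirp1, an actin-binding protein of the intercalated disc, had signals of 923 with PAMH and 824 with phenylephrine, against 476 in unstimulated cells, ratios of 1.94-fold and 1.73-fold.

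The probe sets of Pdlim7 were compared because they disagree. Pdlim7, or Enigma, is a PDZ-LIM protein that binds actin filaments through tropomyosin and is also made outside the heart. Probe set 1372037_at had signals of 1371 with PAMH and 2425 with phenylephrine, against 500 in unstimulated cells. Probe set 1370347_at had 120 with PAMH and 162 with phenylephrine, against 138 in unstimulated cells, not far above the floor of 76.0. The first was thus 2.74-fold higher with PAMH and 4.86-fold higher with phenylephrine. The second had log2 ratios of -0.20 with PAMH and 0.23 with phenylephrine, and neither passed 1.5-fold.

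The log2 ratios of these probe sets differed by 1.65 with PAMH and 2.05 with phenylephrine. As a yardstick, the log2 ratios of probe sets that share a gene were taken around the mean of their gene. They had an SD of 0.29 over 867 genes for PAMH and 0.27 over 864 genes for phenylephrine. This is the spread of single ratios, not of a difference between 2 ratios. It can include unlike transcripts of a gene and holds no variation between cultures. No gene of these 864 had a wider difference than Pdlim7 with phenylephrine. With PAMH 1 gene of 867 had, and it was Myh1, named after its value was seen. As Pdlim7 was compared because its probe sets disagree, its rank describes that difference and is not a test of it. The median difference within a gene was 0.27 with PAMH and 0.24 with phenylephrine. It was larger for genes with a dim probe set, at 0.30 over the 595 genes whose dimmest probe set averaged under 4 times the floor, against 0.20 over the other 272, for PAMH. Fhl1 also had a wide difference, above 95.5% of genes with PAMH and 97.2% with phenylephrine, and Ldb3 one above 92.2% and 94.3%. The 2 probe sets of Ankrd1 differed by 0.21 with PAMH and 0.02 with phenylephrine.

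Between the compounds the Pdlim7 probe sets went the same way. The log2 ratio of the PAMH to the phenylephrine array was -0.82 on 1372037_at and -0.43 on 1370347_at. This difference of 0.39 was larger than that of 77.4% of 866 genes. The mean of both probe sets had log2 ratios of 0.63 with PAMH and 1.26 with phenylephrine, still past 1.5-fold. The annotation gives both to Pdlim7 and says nothing of which transcripts each reads.

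**Figure D3:**
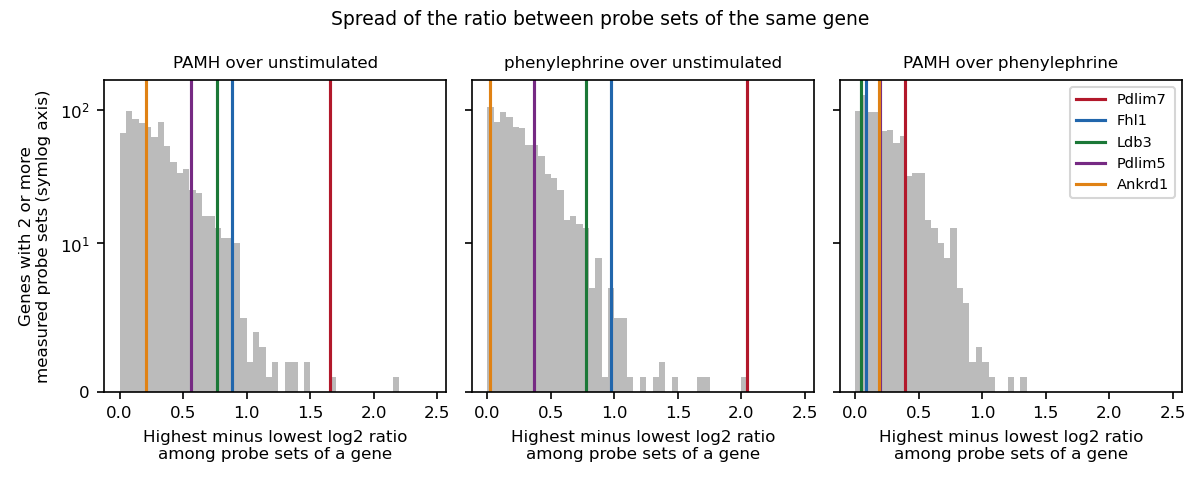
Number of genes (vertical axis, linear to 10 and logarithmic above) by the difference between the highest and lowest log2 ratio among their measured probe sets, in each comparison, with lines at the member genes that have several. Pdlim7 lies at 1.65 with PAMH and 2.05 with phenylephrine, to the right of nearly all genes, and at 0.39 between the PAMH and phenylephrine arrays.

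The second question was how the PAMH array stood against the phenylephrine array. Of the 9 genes, 2 were lower with PAMH by 1.5-fold, against 2.67% of 6593 genes and 1.14% of those in the brightest 2 classes. None was higher, against 1.93% of all genes. They were Pdlim7, at a log2 ratio of -0.82 and percentile 0.80 of all genes, and Tcap, at -0.67 and percentile 1.61. Neither reached 2-fold, which 0.364% of genes did downwards. The members' median log2 ratio was 0.11 and that of all genes 0.04. Of all genes past 1.5-fold, 41.9% were higher with PAMH, and 10.4% with ratios centred on myocyte markers.

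The other members lay close together on these arrays. Ankrd1 (0.30), Ldb3 (0.29), Fhl1 (0.18), Xirp1 (0.16) and Csrp3 (0.11) had small positive log2 ratios, and Pdlim3 (-0.05) and Pdlim5 (-0.09) small negative ones. Those of Csrp3 and Xirp1 turned to -0.05 and to just under 0 when ratios were centred on cardiac myocyte markers, and that of Csrp3 to -0.03 after quantile normalization. The within-gene spread in this comparison had an SD of 0.23, and of these 7 genes only Ankrd1 and Ldb3 lay further than that from 0 under median scaling. Neither did so after cyclic loess, at 0.17 and 0.21, or after myocyte centring, at 0.13 and 0.12. Ankrd1 was at 0 after quantile normalization, and its dimmer probe set had 0.11. All 4 Ldb3 probe sets had ratios between 0.29 and 0.34. Pdlim5 lay further from 0 than that SD after myocyte centring, at -0.26, and by its second probe set under median scaling, at -0.29.

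**Figure D4:**
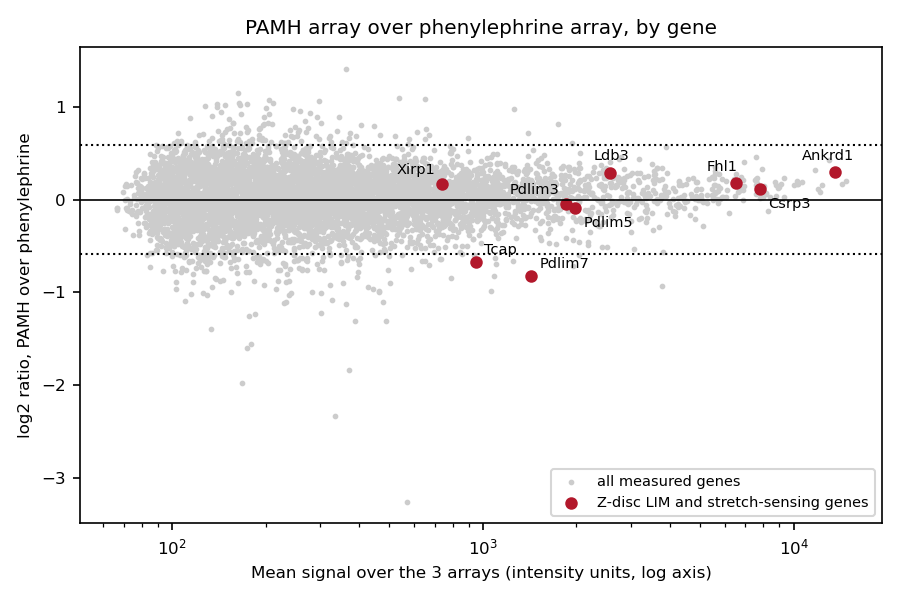
Log2 ratio of the PAMH to the phenylephrine array (vertical axis, dotted lines at 1.5-fold) against mean signal over the 3 arrays (log axis) for all 6593 measured genes (grey) and the 9 member genes (red). Tcap and Pdlim7 lie below the lower dotted line, and the other members near 0.

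Genes with a pattern like that of a member were sought among 1591 other genes with a mean signal above 582, by the distance between their pairs of log2 ratios to the unstimulated array. The 5 nearest to Csrp3 were the small heat shock protein gene Hspb3 (1.71 with PAMH, 1.53 with phenylephrine), the transglutaminase Tgm2 (1.63 and 1.58), Ccdc107 (1.60 and 1.65), the calcineurin regulator Rcan1 (1.79 and 1.45) and the sphingosine 1-phosphate receptor S1pr1 (1.52 and 1.63). The 3 nearest to Pdlim7 by 1372037_at were the lactate exporter Slc16a3 (1.76 and 2.32), the TWEAK receptor Tnfrsf12a (1.82 and 2.26) and the atrial light chain Myl4 (1.70 and 2.63), at distances of 0.30 to 0.43. Those nearest to it by 1370347_at were Rbm3, Lamb1 and Mea1, none past 1.5-fold. This likeness rests on 3 arrays and both ratios share one of them.

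Other genes of the same structures were taken from lists by function. Beside each list count stand the shares of all measured genes: 9.31% higher and 4.17% lower with PAMH, and 8.90% and 4.54% with phenylephrine. Among the brightest 2 of 10 signal classes, 17.7% and 15.2% were higher, with medians of 0.27 and 0.20. Between PAMH and phenylephrine, 1.93% of all genes were higher and 2.67% lower. Of 17 measured structural genes of the Z-disc and M-band, 10 were higher with PAMH and 10 with phenylephrine, and none lower, with median log2 ratios of 0.72 and 0.63. Synpo2l (1.49 with PAMH, 1.24 with phenylephrine), Synpo2 (1.16 and 1.38), the intermediate filament desmin gene Des (1.12 and 1.36), Myoz2, which encodes the calcineurin-binding calsarcin (1.08 and 0.92), the filamin Flnc (1.01 and 1.25) and the α-actinin Actn1 (0.79 and 1.27) were furthest above 0 with at least 1 compound. Actn1 with PAMH and Myoz2 with phenylephrine were short of 1.5-fold after cyclic loess. The cardiac α-actinin Actn2, the scaffold of the Z-disc, had 0.70 and 0.63, but 0.25 and 0.31 after cyclic loess, below 1.5-fold. Titin itself, Ttn, had 0.42 and 0.17. None of these genes was past 1.5-fold between PAMH and phenylephrine. Only 5 or 6 of 17 were higher under normalizations that depend on signal.

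The related LIM genes went different ways. Of 15 measured, 6 were higher and 2 lower with PAMH, and 5 higher and 3 lower with phenylephrine, with median log2 ratios of 0.30 and 0.24. The medians turned to -0.06 and -0.08 after quantile normalization and to -0.05 and -0.07 after cyclic loess, so the list had no settled direction. Csrp1 (1.15 with PAMH, 1.61 with phenylephrine), the cysteine-rich LIM gene of smooth muscle, its relative Csrp2 (0.79 and 0.94), Lmcd1 (1.22 and 1.38), a LIM gene linked to calcineurin signalling, and Nrap of the intercalated disc (0.84 and 1.03) were higher. Nrap and Csrp2 each fell short of 1.5-fold with PAMH under at least 1 rescaling. Lasp1, whose product is a relative of nebulette (-0.70 and -0.63), and Ablim1 (-0.59 and -0.73) were lower with both, and Limch1 (-0.04 and -0.81) with phenylephrine by its brighter probe set, and with both by its other one (-0.82 and -1.07). Ablim1 with PAMH missed the threshold after an offset of 50. Fhl2, a relative of Fhl1, and Pdlim1, of the PDZ-LIM family, were not past it: Fhl2 had -0.04 and -0.26, with a second probe set at 0.36 and 0.17, and Pdlim1 had 0.56 and 0.43. Crip1 (0.99) and Limch1 (0.77) were higher with PAMH than with phenylephrine, Limch1 not so by the mean of its probe sets or with the offset. Of the other muscle ankyrin-repeat and Xin genes, Ankrd23 alone was on the arrays, below the floor on each.

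Of 16 measured focal adhesion and costamere genes, 6 were higher with PAMH and 7 with phenylephrine, and none lower, with median log2 ratios of 0.42 and 0.52. Itgb1bp2, which encodes the stretch-sensing integrin partner melusin (1.37 with PAMH, 1.43 with phenylephrine), the LIM gene zyxin, Zyx (1.20 and 1.08), Lims2 of the PINCH family (1.12 and 0.97), the integrin-linked kinase Ilk (0.85 and 0.98) and Tgfb1i1 (0.96 and 0.97) were furthest above 0, Ilk with PAMH not past 1.5-fold after normalization by signal. Vinculin, Vcl, had 0.13 and 0.06, with a second probe set at 0.42 and 0.28. By the brighter one, both ratios fell below 0 on the deposited intensities and after quantile normalization or cyclic loess. Of 14 genes of titin and Z-disc signalling and turnover, 5 were higher and 1 lower with PAMH, and 4 higher and 1 lower with phenylephrine, with medians of 0.32 and 0.24. These medians lay above the 0.10 and 0.07 of all genes and near the 0.27 and 0.20 of genes in the brightest 2 signal classes. Some genes of this list, such as Prkca and Prkce, were dimmer than those classes. Rcan1, Hspb1 (0.95 and 1.24), Hspb8 (0.74 and 0.93), Smpx (0.80 and 0.51) and Hspb7 (0.78 and 0.62) were higher with at least 1 compound, though the PAMH ratios of Hspb8, Smpx and Hspb7 and the phenylephrine ratio of Hspb7 missed 1.5-fold under quantile normalization and several other rescalings. The muscle ring finger gene Trim54 was lower with PAMH (-0.65) and Trim63, which marks sarcomere proteins for breakdown, with phenylephrine (-0.65), while Trim54 had -0.06 with phenylephrine and Trim63 -0.10 with PAMH. Trim54 was also lower with PAMH than with phenylephrine (-0.59), but not past 1.5-fold with the offset. Of 12 SRF and mechanical response targets, 6 were higher with PAMH and 7 with phenylephrine, and none lower, with medians of 0.65 and 0.69. Cnn1 (2.48 and 2.85), Nppb (2.19 and 1.996), Nppa (1.38 and 1.18) and Acta1 (1.25 and 1.09) led that list, and Srf itself had 0.35 and 0.21. Nppa had the highest signal of all on the PAMH (19589) and phenylephrine (16987) arrays, so the caution given for Ankrd1 holds for it too. Under other settings the ratios fell as low as 0.85 and 0.77 for Nppa and 0.78 and 0.74 for Acta1, still past 1.5-fold.

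Some markers of cell types differed between the arrays as well. The defining myocyte genes were bright on all arrays: 12 of 13 were measured, none below the floor. Their summed signal was 103408 with PAMH, 88669 with phenylephrine and 77420 in unstimulated cells. Such sums, here and for the lists below, follow the brightest probe sets and are not a measure of cell number. The myocyte median log2 ratios were 0.23 with PAMH and -0.02 with phenylephrine, with 10 and 5 of the 12 genes above 0. Of the 12, 3 were higher and 1 lower with PAMH, and 2 higher and 1 lower with phenylephrine. The lower one was the myoglobin gene Mb, at -0.67 with both. Of all genes, 9.31% were higher and 4.17% lower with PAMH, and 8.90% and 4.54% with phenylephrine. In the brightest 2 signal classes 17.7% and 15.2% were higher, and the myocyte count with phenylephrine lay near that share. The fibroblast list had a summed signal of 9558 with PAMH and 11430 with phenylephrine, against 13582 in unstimulated cells. Of its 9 measured genes, 6 were lower with PAMH and 1 with phenylephrine, against 4.17% and 4.54% of all genes, with medians of -0.89 and -0.46. Not all probe sets went with these calls. Second probe sets of Col1a1 (-0.04) and Fbn1 (-0.41) were short of 1.5-fold with PAMH. Dcn, the gene lower with phenylephrine, missed the threshold there with an offset of 50. Vim had -0.06 with PAMH and 0.02 with phenylephrine. The smooth muscle list had 9834 and 11922, against 5602, with 3 of 6 measured genes higher and 1 lower with PAMH and 4 higher with phenylephrine. The shares of all genes given for the myocyte list apply here too. In bulk RNA, fewer cells of a type and less RNA per cell cannot be told apart, and the part of these cells in the ratios of the members and of Csrp1 was not tested. Actn2 stands in both the myocyte and the structural list, and Cnn1 and Tagln in both the smooth muscle and the SRF target list. With every ratio centred on the myocyte markers, the same genes among the members were called as before, 8 with PAMH and 7 with phenylephrine. This centring only subtracts the markers' median ratio, 0.23 with PAMH and -0.02 with phenylephrine. It could thus change little with phenylephrine, and it cannot show what part other cells have in the ratios. All 5 endothelial genes on the arrays were below the floor on the PAMH and unstimulated arrays, and 4 of them on all 3 arrays. Of 6 macrophage and antigen-presenting genes, 3 were below the floor with each compound and 4 in unstimulated cells, with summed signals of 452 with PAMH and 391 with phenylephrine, against 367 in unstimulated cells. Of 6 skeletal muscle genes, 4 were below it on each array, Myod1 among them.

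**Figure D5:**
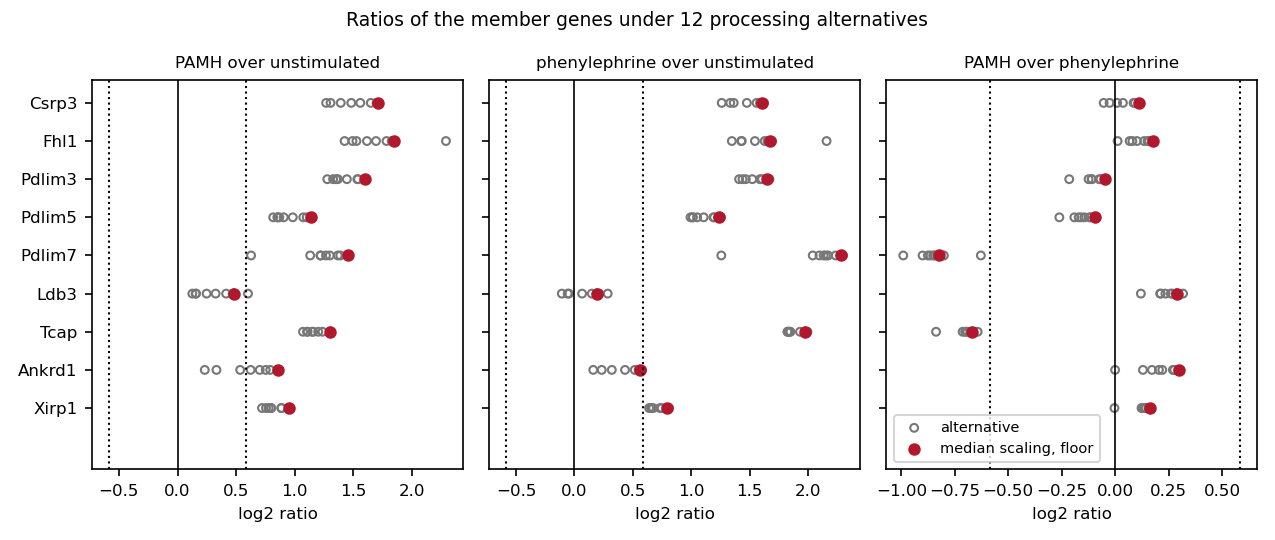
Log2 ratios of the 9 member genes in each comparison under median scaling with a floor (red) and under 12 processing alternatives (open circles), with dotted lines at 1.5-fold. Every alternative keeps Csrp3, Fhl1, Pdlim3, Pdlim5, Pdlim7, Tcap and Xirp1 above 1.5-fold with both compounds, and keeps Pdlim7 and Tcap at least 1.5-fold lower with PAMH than with phenylephrine.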

How the data were processed

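The deposited files hold 1 signal intensity per probe set, for 15923 probe sets, of which 57 are controls, on each of 3 arrays. How the authors made these intensities is not given in the sources used here. With 2% trimmed from each end, the mean intensity was 250.1 on every array, and the medians were 106 with PAMH, 108 with phenylephrine and 118 in unstimulated cells. A RefSeq table of assembly GRCr8 gave current symbols by gene identifier for 12748 of the 12783 probe sets with 1 symbol.

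Each array was scaled to a common median, and log2 ratios were taken where both arrays reached the floor. With 1 array per condition no test was made. The calculation was tested on simulated data with known folds. Python 3.11.15, numpy 2.4.6, pandas 2.3.3 and matplotlib 3.10.9 were used; quantile and cyclic loess normalization came from limma 3.58.1 in R 4.3.3. Scaling, floor, offset, probe set choice and fold threshold were varied.

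The members and lists were chosen with earlier results of these data known. All member probe sets are named. Of each list, up to 4 genes past 1.5-fold in each direction and comparison are named, together with Actn2, Ttn, Fhl2, Pdlim1, Vcl and Srf, which were added after their values were seen. Likeness names 5 genes for Csrp3 and 3 for each Pdlim7 probe set.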

Additional observations from a re-analysis of the deposited data

How the results depend on the processing

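With 1 array per condition, there was no replicate to leave out, and the spread between cultures is unknown. No paired analysis was possible because each condition had 1 array. Whether the signals of Ankrd1 and Nppa are compressed near the top of the range was not tested. Members called higher numbered between 6 and 9 with PAMH and between 6 and 7 with phenylephrine over 13 alternatives, the lowest being at 2-fold and the 9 with PAMH by the mean of probe sets, which added Ldb3. Pdlim7 and Tcap were lower with PAMH than with phenylephrine under all 12 processing alternatives, and 0 members were at 2-fold. No result reversed its call. The cause of the following shifts was not tested.

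The members' median log2 ratio was 0.95 with PAMH by the mean of probe sets, and with phenylephrine 1.33 after quantile normalization, 1.26 after cyclic loess and 1.26 by the mean of probe sets. The difference between the Pdlim7 probe sets was 1.34 with PAMH and 1.77 with phenylephrine after centring within signal classes.

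Structural Z-disc genes called higher with PAMH numbered 6 after quantile normalization, cyclic loess or myocyte centring and 5 after class centring. With phenylephrine they numbered 6 after quantile normalization or class centring and 5 after cyclic loess. Of them, 1 was lower with PAMH on deposited intensities and after those 4 rescalings, and 1 with phenylephrine with the floor at percentile 30 or no floor. Their median was 0.34 (quantile), 0.29 (loess) and 0.40 (class centring) with PAMH, and 0.36 (quantile) with phenylephrine. Between PAMH and phenylephrine, 1 was higher without a floor and 1 lower after myocyte centring.

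Of the related LIM genes, 3 were higher with PAMH after myocyte centring and 1 was lower with an offset of 50. Their median with PAMH was -0.062 (quantile), -0.055 (loess) and -0.020 (class centring), and with phenylephrine -0.082 (quantile) and -0.069 (loess). Between PAMH and phenylephrine, 1 was higher with the floor at percentile 50, with the offset of 50 or by the mean of probe sets, and 1 was lower after myocyte centring. Of the focal adhesion genes, 1 was lower with phenylephrine after quantile normalization, cyclic loess or class centring or without a floor, and 1 was higher with PAMH than with phenylephrine without a floor.

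Titin and Z-disc signalling genes called higher with PAMH numbered 2 after quantile normalization, cyclic loess, class centring or myocyte centring. Between PAMH and phenylephrine, 1 was higher without a floor and 0 were lower with the offset of 50. The median of SRF and mechanical response targets was 0.23 (quantile), 0.26 (loess) and 0.32 (class centring) with PAMH, and 0.36 (quantile) and 0.33 (loess) with phenylephrine. Of these targets, 1 was lower with PAMH than with phenylephrine after class centring, after myocyte centring or without a floor.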
